A study of Homo sapiens with 8 samples.

Results

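The 10 genes described here are NKX2-5 and a set of cardiac regulators and target genes named with it: the transcription factors GATA4, GATA6, TBX5, TBX20, HAND2, MEF2C and ISL1, and the peptide genes NPPA and NPPB. They were taken as a list of symbols out of 60652 gene rows, and all 10 symbols matched a row. The list was drawn up because NKX2-5 was higher in cells with dCasMINI-VPR and its Tet guide than in cells with the non-targeting guide, so that comparison is given for the members as a description. The question asked of the data was whether partners or targets of NKX2-5 were higher where NKX2-5 was higher.

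NKX2-5 is a homeodomain transcription factor of the NK2 class and one of the earliest markers of cardiac progenitor cells. It binds DNA together with GATA4, TBX5 and other cardiac factors, which activate one another's genes and shared targets in heart muscle, among them the natriuretic peptide genes NPPA and NPPB. Mutations in NKX2-5, GATA4 and TBX5 cause congenital heart defects. HEK293T, a line derived from human embryonic kidney, is not a cardiac cell.

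Poly(A) RNA was sequenced from 8 libraries of HEK293T cells with a TRE3G-GFP reporter, in which tet operator sites drive the gene for green fluorescent protein. All cells were cultured with 10% serum, received 1 plasmid encoding an activator and 1 encoding its guide, and were gated for mCherry and BFP 2 days after transfection. In 2 groups the activator was dCasMINI-VPR, a compact Cas protein that does not cut DNA, joined to the VPR activation domains, with the guides sgNT (non-targeting) or sgTet (named Tet). In the other 2 groups it was dCas12a-VPR, built on a bigger nuclease-dead Cas protein, with the guides crNT (non-targeting) or crTet. Each group holds 2 libraries, and the labels do not say whether these came from separate transfections, so errors and p-values measure the spread between libraries, which may be technical. The activators come from plasmids in transfected cells, so every value is a mean over a sorted population. In such bulk RNA, more cells that express a gene and more RNA per cell cannot be told apart.

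Reads counted in genes ranged from 17474404 to 21081942 per library, and 3 reads correspond to between 0.142 and 0.172 CPM, the unit of level used here, which scales a gene's count to the size of its library. This floor covers counting error only. The share of unmapped reads was 14.4% and 12.7% in the crNT pair, above the 8.32% to 9.62% of the remaining 6 libraries. Library names of the 2 activators also carry different prefixes, so activator and library set cannot be told apart. The reporter responded to both Tet guides (n = 2 libraries a group). Its log2 fold change was 8.05 ± 0.13 (SE) with dCasMINI-VPR and 8.12 ± 0.13 with dCas12a-VPR. Its mean level was 1007 CPM in sgTet and 756 CPM in crTet, a log2 difference of 0.41 ± 0.08 (edgeR adjusted p = 0.00265). All 8 HEK293T markers checked had reads in each library, with a summed level of 1315 to 1636 CPM. Of 8 cardiomyocyte markers, 3 to 5 had a read in a given library, at a summed 6.24 to 9.55 CPM, and TNNT2 (cardiac troponin T) and MYL2 (ventricular myosin light chain) had no read in any library.

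Promoter windows near the members were searched for short words of the kind that these factors bind. RefSeq (GRCh38.p14) gave windows of 300 bases, from 250 before to 50 after a transcript start, for 7 of the 10 members, 14 windows in all. NKX2-5, GATA4 and NPPB had no entry. The NK2-type element TNAAGTG, searched on both strands, was in 1 of the 14 windows and in 10.2% of 35116 windows of all genes. GATA words (AGATAA or AGATAG, and the same words with T as the first letter, on both strands) were in 8 of the 14 and in 24.97% of all windows. Several of the 14 windows, among them windows with a GATA word, are alternative starts of MEF2C alone. The windows are therefore not independent, and these shares cannot be set against each other. Below are the 250 bases before the start of NPPA (chr1:11847784-11848033, minus strand), the textbook target of this network, with its 2 GATA words in capitals, at positions 109 and 156 from the 5′ end, and no TNAAGTG match in the window. Beneath it are the 30 bases around the single TNAAGTG match, in MEF2C (chr5:88883156-88883185, minus strand), with the match in capitals; it lies on the opposite strand to the letters printed and starts at position 13 of the stretch.
NPPA: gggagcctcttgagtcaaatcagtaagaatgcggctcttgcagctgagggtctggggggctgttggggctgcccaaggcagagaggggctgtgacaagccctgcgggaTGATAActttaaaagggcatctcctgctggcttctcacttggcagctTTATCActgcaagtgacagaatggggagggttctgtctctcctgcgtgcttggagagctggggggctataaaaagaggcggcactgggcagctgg
MEF2C: cgcagtcacagaCACTTGAgcacacgcgta
These are matches of letters in the reference genome and not measured binding sites. The shorter word AAGTG, which ends TNAAGTG, does occur in the NPPA stretch on either strand, in lower case. A window without the full word can therefore still hold a site of this kind.

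NKX2-5 (ENSG00000183072.10) lies at chr5:173232109-173235357 on the minus strand of hg38, and no other annotated gene overlaps it. Its level was 87.3 and 89.1 CPM in the sgNT libraries, 345 and 341 CPM in sgTet, 69.7 and 79.3 CPM in crNT, and 81.0 and 84.9 CPM in crTet. Both sgTet libraries lay far above the other 6, which spanned a narrow range. The sgTet mean was 343 ± 2.86 CPM (SD, n = 2) against 88.2 ± 1.29 CPM in sgNT, a log2 fold change of 1.96 ± 0.08 (SE), or 3.88-fold. NKX2-5 was not silent in the cells with non-targeting guides: by mean level it ranked 2634 of the 16606 genes that passed the count filter in sgNT, and 431 in sgTet. In this comparison 96 genes had a larger log2 fold change, called or not. Of all tested genes 78 were called higher, so not all of the 96 were called. The change rests on 3275 reads of NKX2-5 in the sgNT pair and 13930 in the sgTet pair, which split about evenly between the strands, as they do for all genes of this unstranded protocol.

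**Figure D1:**
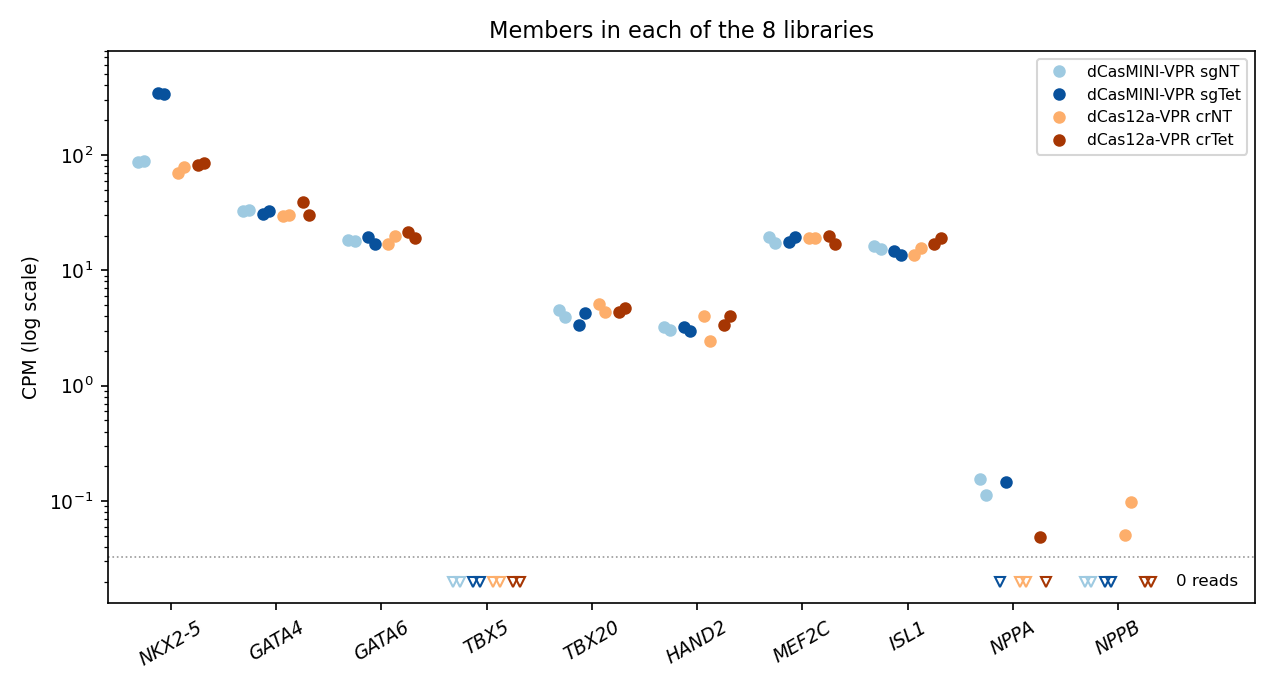
CPM of the 10 members (x axis) in each of the 8 libraries, on a log axis, with 1 circle per library and open triangles below the dotted line for libraries with 0 reads. NKX2-5 stood at 345 and 341 CPM in sgTet and at 69.7 to 89.1 CPM in the other 6 libraries, while the groups of GATA4, GATA6, TBX20, HAND2, MEF2C and ISL1 lay close together and TBX5 had no read.

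With dCas12a-VPR, whose libraries had no part in choosing the list, the rise of NKX2-5 did not pass the test. The crTet mean was 83.0 ± 2.75 CPM against 74.5 ± 6.82 CPM in crNT, a log2 fold change of 0.16 ± 0.08 with a 95% interval of -0.01 to 0.32 (edgeR quasi-likelihood test, Benjamini-Hochberg adjusted p = 0.288). Both crTet libraries were above both crNT libraries, but the means differed by less than the crNT libraries did from each other. The interval leaves out the rise seen with dCasMINI-VPR, and the difference between the 2 guide effects was 1.80 ± 0.11 on the log2 scale, given as a description. Between the cells with non-targeting guides, NKX2-5 was higher with dCasMINI-VPR than with dCas12a-VPR by 0.24 ± 0.08 on the log2 scale. That comparison uses the sgNT libraries on which the list was chosen, so the value is a description and no test is read from it. Whether it passed the threshold depended on the fit. In order of mean level, crNT, crTet and sgNT followed closely, with sgTet apart. The nearest libraries of crTet and sgNT differed by less than the crTet pair did.

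Of the tested partner factors, each had a 95% interval that included 0 where NKX2-5 was higher. Of the 10 members, 7 passed the count filter, NKX2-5 and the 6 partners GATA4, GATA6, TBX20, HAND2, MEF2C and ISL1, while TBX5, NPPA and NPPB did not. In sgTet against sgNT the 6 partners had log2 fold changes from -0.16 to 0.03 with a median of -0.03, beside a median of 0.00 over all genes tested, and 1 of the 6 was above 0. Among the members NKX2-5 alone was called at an adjusted p under 0.05, where 0.795% of all tested genes were called (0.470% higher and 0.325% lower). Since the list was chosen on this comparison, nothing is read from these counts. The 95% intervals of the 6 reached from -0.69 to 0.62 at their widest, for the lowest genes, so a smaller change in those was not detectable at this depth.

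GATA4, a zinc finger factor that binds NKX2-5 directly, was the partner with the most reads. Its level was 32.6 and 33.3 CPM in sgNT, 31.0 and 32.9 CPM in sgTet, 29.4 and 29.99 CPM in crNT, and 39.3 and 30.1 CPM in crTet. The sgNT and sgTet libraries overlapped, with a log2 fold change of -0.04 ± 0.12, and 1 of the crTet libraries stood above the other 7. With dCas12a-VPR the log2 fold change was 0.23 ± 0.12 (edgeR adjusted p = 0.307). GATA6, its close relative in heart and endoderm, was at 18.4 and 18.0 CPM in sgNT, 19.3 and 16.8 CPM in sgTet, 16.9 and 19.99 CPM in crNT, and 21.5 and 18.9 CPM in crTet. Every pair of groups joined by a guide comparison overlapped, with log2 fold changes of -0.02 ± 0.14 for dCasMINI-VPR and 0.13 ± 0.14 for dCas12a-VPR (edgeR adjusted p = 0.672). GATA6 shares its locus with 4 annotated genes on the opposite strand, GATA6-AS1 among them. Reads in the shared stretches are left out of its unstranded count.

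The T-box factors differed from each other in level. TBX5, the partner of NKX2-5 whose loss causes Holt-Oram syndrome, had 0 reads in all 8 libraries, which allows a level of up to 0.142 to 0.172 CPM in a library. TBX20, a T-box factor of the developing heart chambers, was at 4.51 and 3.91 CPM in sgNT, 3.35 and 4.26 CPM in sgTet, 5.07 and 4.38 CPM in crNT, and 4.39 and 4.70 CPM in crTet. Its libraries overlapped in both guide comparisons, with log2 fold changes of -0.15 ± 0.27 for dCasMINI-VPR and -0.06 ± 0.26 for dCas12a-VPR (edgeR adjusted p = 0.943).

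HAND2 and MEF2C are a basic helix-loop-helix factor and a MADS box factor of the right ventricle and outflow tract. HAND2 was at 3.23 and 3.01 CPM in sgNT, 3.20 and 3.0 CPM in sgTet, 3.996 and 2.46 CPM in crNT, and 3.37 and 4.03 CPM in crTet. The sgNT and sgTet libraries were interleaved (log2 fold change -0.01 ± 0.31), and the crNT pair spanned nearly the whole range of the gene (0.20 ± 0.30 for crTet against crNT, edgeR adjusted p = 0.785). MEF2C was at 19.3 and 17.1 CPM in sgNT, 17.6 and 19.5 CPM in sgTet, 19.1 and 18.9 CPM in crNT, and 19.9 and 16.9 CPM in crTet. Its 4 groups overlapped, with log2 fold changes of 0.03 ± 0.14 for dCasMINI-VPR and -0.04 ± 0.14 for dCas12a-VPR (edgeR adjusted p = 0.914). HAND2 overlaps HAND2-AS1 and MEF2C overlaps 2 antisense genes, with the same limit as for GATA6.

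ISL1, a LIM homeodomain factor of the second heart field progenitors, came nearest to a change outside NKX2-5. It was at 16.2 and 15.1 CPM in sgNT, 14.6 and 13.5 CPM in sgTet, 13.6 and 15.6 CPM in crNT, and 17.03 and 19.1 CPM in crTet. The sgTet libraries lay below the sgNT libraries and the crTet libraries above the crNT libraries, so the 2 guide comparisons had opposite signs, -0.16 ± 0.15 for dCasMINI-VPR and 0.31 ± 0.15 for dCas12a-VPR. In dCas12a-VPR the 95% interval was 0.01 to 0.61, with an adjusted p of 0.242 (edgeR), which did not pass the threshold. The difference between the 2 guide effects was -0.47 ± 0.21. It holds the comparison on which the list was chosen, so it is a description and no change is read from it. With dCas12a-VPR 0 of the 7 tested members were called by edgeR, where 6.32% of all tested genes were called (3.56% higher and 2.75% lower). DESeq2 called 0 of the 5 members to which it gave an adjusted p, and 8.82% of all such genes. In edgeR ISL1 was the one member with an unadjusted p under 0.05. The median of the 6 partners was 0.16, beside 0.01 for all genes tested.

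**Figure D2:**
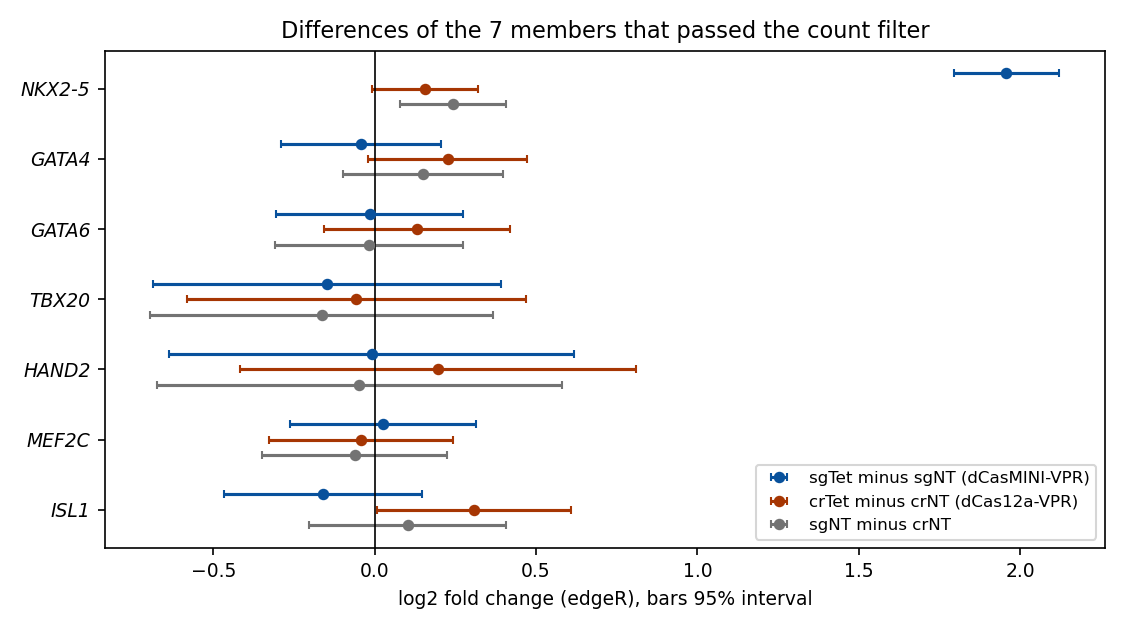
Log2 fold changes (x axis, points, with 95% intervals as bars) of the 7 members that passed the count filter, for the guide comparison of each activator and for the 2 non-targeting groups. The value of 1.96 for NKX2-5 with dCasMINI-VPR stands apart, and the values of the 6 partners in that comparison run from -0.16 to 0.03.

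The target genes had few reads. In the unstranded column NPPA, which encodes atrial natriuretic peptide, had 3 and 2 reads in the sgNT pair, 0 and 3 in the sgTet pair, none in crNT, and 1 and 0 in crTet. NPPB, which encodes brain natriuretic peptide, had 0 reads in all 4 dCasMINI-VPR libraries and in the crTet libraries, and 1 and 2 reads in crNT. The counts of NPPA were 5 reads in the sgNT pair (95% counting interval 1.62 to 11.7) and 3 in the sgTet pair (0.619 to 8.77), so no fold change is given. NPPA overlaps CLCN6 on the opposite strand, and reads shared between them are not counted for either gene in the unstranded column. In the strand-specific columns NPPA had 3 and 2 forward reads in sgNT against 6 and 6 in sgTet, and 6 and 3 reverse reads against 1 and 5, so the order of these groups depends on the column. In this unstranded protocol those columns can also hold reads of CLCN6, so the added reads cannot be assigned to NPPA.

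Levels per kilobase of annotated exon allow the members to be compared with each other. In sgNT, NKX2-5 was at 42.1 CPM per kb, GATA4 at 7.41, ISL1 at 5.44, GATA6 at 4.62, TBX20 at 2.25, MEF2C at 1.55 and HAND2 at 0.866 CPM per kb. In sgTet, NKX2-5 was at 164 CPM per kb and GATA4 at 7.19. The place of GATA6 depends on the column, since its unstranded count leaves out reads shared with the opposite strand: in sgNT it had 172 unstranded reads per kb and 148 in each strand-specific column, where GATA4 had 275 unstranded, 132 forward and 143 reverse reads per kb. The strand-specific columns of GATA6 can also hold reads of the genes that overlap it, so neither column gives its place for certain. NKX2-5 led the members in each of the 4 groups, and it was the most abundant before any Tet guide was present. The lengths are unions of exons over all annotated transcripts, so a gene with many alternative exons, such as MEF2C, is placed low on this scale.

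Between the activators, 0 of the 7 tested members were called with non-targeting guides by edgeR. In that fit 7.68% of all tested genes were called, 4.09% higher and 3.60% lower with dCasMINI-VPR. DESeq2 called 0 of the 7 too, and 8.96% of the genes to which it gave an adjusted p. In edgeR NKX2-5 was the one member with an unadjusted p under 0.05. It is given as a description because the sgNT libraries had a part in choosing the list. With Tet guides NKX2-5 alone was called, at 2.05 ± 0.08 on the log2 scale, where 4.28% of all tested genes were called. That comparison uses the sgTet libraries on which the list was chosen, and the NKX2-5 value is a description. ISL1 was lower in both sgTet libraries than in crTet, at -0.36 ± 0.15 on the log2 scale. This value is likewise a description, and no change is read from it.

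Further genes of the network came from 6 lists. None of their tested genes was called in sgTet against sgNT, where 0.795% of all tested genes were called. At so low a share, 0 calls in lists of this size says little about them. These were 7 tested genes of the NK homeobox family, 35 other cardiac transcription regulators, 11 genes of the contractile apparatus, 16 of conduction and calcium handling, 22 of the signals that act upstream of NKX2-5, and 8 of natriuretic peptide processing and reception. Unadjusted p-values under 0.05 in edgeR numbered 1, 4, 2, 1, 2 and 0 in that order, and DESeq2 called none of those to which it gave an adjusted p. Without sgTet replicate 2, where 8.34% of all tested genes were called, edgeR called 1 other regulator, 2 conduction genes, 1 upstream gene and 1 natriuretic gene, all lower in sgTet. The medians of the lists were -0.02, -0.01, 0.00, -0.23, 0.05 and -0.16 on the log2 scale, beside 0.00 for all genes tested.

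Of the 24 contractile genes of heart muscle, classical downstream genes of this network, 11 passed the count filter, and TNNT2, MYL2, MYBPC3 and MYOZ2 had no read in any library. MYOM1 (myomesin, a protein of the sarcomere M band) had the largest difference of the list and was picked out after its values were seen: it had 2 reads in each sgNT library, 9 and 26 in the sgTet pair, 5 and 14 in the crNT pair, and 8 in each crTet library. Both sgTet libraries were above the sgNT libraries, but the lower of them lay within the range of the dCas12a-VPR libraries, and the log2 fold change of 2.92 ± 0.95 had an adjusted p of 0.161 (edgeR). DES (desmin) was lower in sgTet than in crTet, at -1.54 ± 0.45 on the log2 scale (edgeR adjusted p = 0.0446), a call that was lost in 10 of 16 alternatives (adjusted p from 0.0538 to 0.298). These were DESeq2, the counts of either strand (log2 -0.96 forward and -0.93 reverse), the replicate block, the groups compared alone, and the fits without sgTet replicate 2, either crNT library or either crTet library.

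With dCas12a-VPR, 7 of the 35 other cardiac transcription regulators tested were called higher in crTet than in crNT and 0 lower, beside the background of 3.56% and 2.75%, and the list's median was 0.23 against 0.01 for all genes. NR2F1 (COUP-TF1, an orphan nuclear receptor) was at 47.2 and 47.8 CPM in crNT and 75.4 and 72.6 CPM in crTet, with 76.5 and 83.9 CPM in sgNT and 90.4 and 87.0 CPM in sgTet. Its crNT libraries were the lowest of all 8, and its log2 fold change was 0.64 ± 0.09 (edgeR adjusted p = 4.45e-05). FOXC1, a forkhead factor of the outflow tract, rose by 0.40 ± 0.07 (adjusted p = 7.00e-04), NR2F2 (COUP-TF2), a factor of atrial identity, by 0.37 ± 0.08 (0.00545), and TBX1, the T-box factor of the pharyngeal heart field, by 0.47 ± 0.11 (0.00819). The count of 7 fell to 1 without crNT replicate 1, to 4 without crNT replicate 2 and to 2 without crTet replicate 1, where 0.763%, 1.93% and 2.93% of all tested genes were called. In sgNT against crNT, which uses the same crNT libraries, 6 of the 35 were higher and 0 lower, beside 4.09% and 3.60% of all tested genes, with NR2F1 at 0.76 ± 0.09, FOXC1 at 0.60 ± 0.07, TBX1 at 0.53 ± 0.11 and NR2F2 at 0.38 ± 0.08. That count of 6 fell to 2 without sgNT replicate 2, to 4 without sgNT replicate 1, to 2 without crNT replicate 1 and to 4 without crNT replicate 2, where the share of all tested genes called was 1.89%, 4.71%, 2.26% and 2.85% in that order. Of the 4 genes named, NR2F1 alone kept its call in crTet against crNT under every alternative run, and in sgNT against crNT NR2F1 and FOXC1 did. HEY1, a NOTCH target, was higher in sgTet than in crTet by 0.28 ± 0.07 (edgeR adjusted p = 0.0254), a call lost in 7 alternatives, among them without either sgNT or either crNT library, sgTet replicate 1 or crTet replicate 2. HEY1 was also 1 of the 6 called higher in sgNT against crNT, a call lost with forward-strand counts, among other alternatives. Its mean levels were 377 CPM in sgNT and 318 CPM in crNT, beside 389 CPM in sgTet and 321 CPM in crTet. The crNT libraries are also those with the largest share of unmapped reads, whose part in these differences was not tested.

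Of the 22 tested signals upstream of NKX2-5, 4 were called in crTet against crNT, beside 3.56% of all tested genes higher and 2.75% lower, and 5 in sgNT against crNT, beside 7.68% in both directions. BMP signals, which induce NKX2-5 in the early mesoderm, switch on ID1 and ID3, inhibitors of basic helix-loop-helix factors, and SMAD6 and SMAD7, inhibitors of the pathway itself. In crTet against crNT the 4 called were these target genes, all higher: ID1 by 0.74 ± 0.11, ID3 by 0.40 ± 0.11, SMAD6 by 0.59 ± 0.16 and SMAD7 by 0.54 ± 0.15 on the log2 scale (edgeR adjusted p from 9.15e-05 to 0.0261). ID1 was at 24.2 and 28.3 CPM in crNT, 42.7 and 45.2 CPM in crTet, 37.0 and 40.3 CPM in sgNT, and 44.2 and 41.7 CPM in sgTet, so its crNT pair was again the lowest. The count of 4 was lower without any 1 of the crNT or crTet libraries, where fewer of all tested genes were called as well. It was higher without either sgTet library, where more of all tested genes were called too. In sgNT against crNT the same 4 genes were higher, and BMPR1A, a BMP receptor, was lower, at -0.38 ± 0.10 (edgeR adjusted p = 0.0145). That count of 5 in both directions was lower without sgNT replicate 2 or either crNT library, where fewer of all tested genes were called too.

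No other gene of the NK homeobox family passed the test in any of the 5 comparisons, and NKX2-6, a relative expressed in the developing heart, had no read. Over these comparisons the share of all tested genes called ran from 0.795% to 7.68%, so few calls would fall in a list this small. Unadjusted p-values under 0.05 in edgeR numbered 1 of the 7 tested genes in sgTet against sgNT and 2 in crTet against crNT, and DESeq2 called 0 of those to which it gave an adjusted p, 7 and 3 in number. None of the 16 conduction and calcium genes was called by edgeR in any comparison, with 1 unadjusted p under 0.05 in sgTet against sgNT and 0 in crTet against crNT, and DESeq2 called none of those to which it gave an adjusted p there. Of the natriuretic genes, NPPC (C-type natriuretic peptide) was higher by 0.59 ± 0.18 and PRKG1 (the kinase that responds to cyclic GMP) lower, at -0.62 ± 0.16, in sgNT against crNT (edgeR adjusted p = 0.0377 and 0.0148). NPPC was no longer called with DESeq2, with forward-strand counts (0.27, adjusted p = 0.602) or without any 1 of the 4 libraries compared, and PRKG1 with forward-strand counts (-0.51, adjusted p = 0.0922) or without sgNT replicate 2 or either crNT library.

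**Figure D3:**
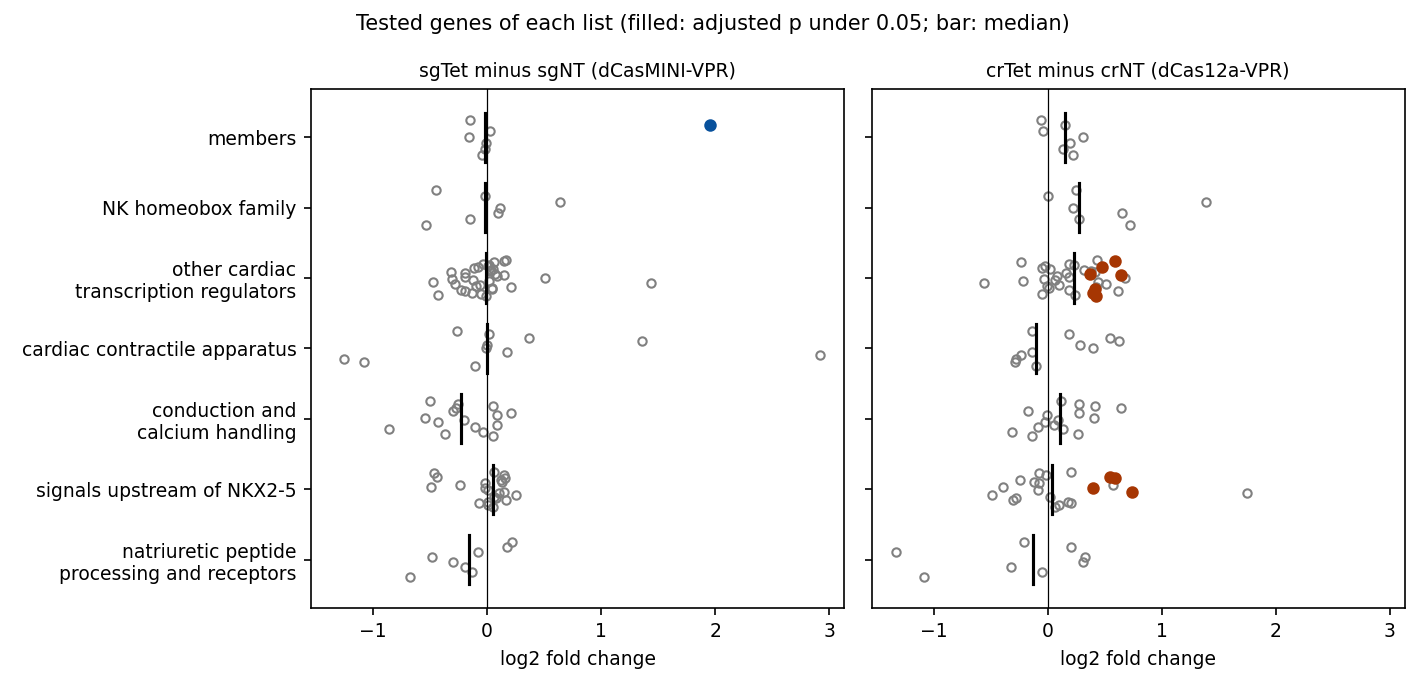
Log2 fold changes (x axis) of the tested genes of each list, for the guide comparison of dCasMINI-VPR (left) and of dCas12a-VPR (right); filled circles mark an adjusted p under 0.05 and black bars the list medians. NKX2-5 is the single filled circle on the left, and 7 other cardiac regulators and 4 upstream genes are filled on the right.

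No protein-coding gene around NKX2-5 passed the test in the cells where NKX2-5 was higher, where 0.795% of all tested genes passed. Within 500 kb of its start lie 8 other protein-coding genes, all of which passed the count filter, and 26 genes of other types, of which 1 did. In sgTet against sgNT 0 of the 8 were called by edgeR or by DESeq2. DESeq2 called 0.645% of the genes to which it gave an adjusted p. The count of 0 lies near these shares and is no result about these genes. Their log2 fold changes ran from -0.27 to 0.11, and 1 had an unadjusted p under 0.05. That gene was STC2 (stanniocalcin 2, a secreted glycoprotein), 94.1 kb from NKX2-5, at -0.27 ± 0.09 (edgeR adjusted p = 0.160, or 0.0375 without sgTet replicate 2, where 8.34% of all tested genes were called). BNIP1, a protein of membrane fusion, at -90.9 kb on the other side, was at -0.03 ± 0.14. The nearest gene of any type, the pseudogene RPL7AP33 at -8.93 kb, had 3 reads in the sgNT pair, 13 in the sgTet pair, 0 in crNT and 1 in crTet, too few for the filter.

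With dCas12a-VPR 2 of the 8 neighbours were called, beside 6.32% of all tested genes. DUSP1, a phosphatase that inactivates MAP kinases, at -464 kb from NKX2-5, was at 134 and 163 CPM in crNT and 359 and 389 CPM in crTet, with 240.0 to 270.6 CPM in the 4 dCasMINI-VPR libraries. Its crTet libraries were the highest and its crNT libraries the lowest of all 8, and the log2 fold change was 1.33 ± 0.08 (edgeR adjusted p = 6.19e-13). The difference between its 2 guide effects passed the test at -1.25 ± 0.11 (edgeR adjusted p = 1.24e-08), one of the 1.35% of tested genes called in that comparison. CREBRF, a regulator of the stress factor CREB3, fell by 0.69 ± 0.15 (edgeR adjusted p = 0.00412), a call lost without crNT replicate 1 (0.101) or crTet replicate 2 (0.117) and with forward-strand counts (0.121). Without either sgTet library 4 of the 8 were called, with BOD1 and RPL26L1 added, where 11.1% of all tested genes were called.

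**Figure D4:**
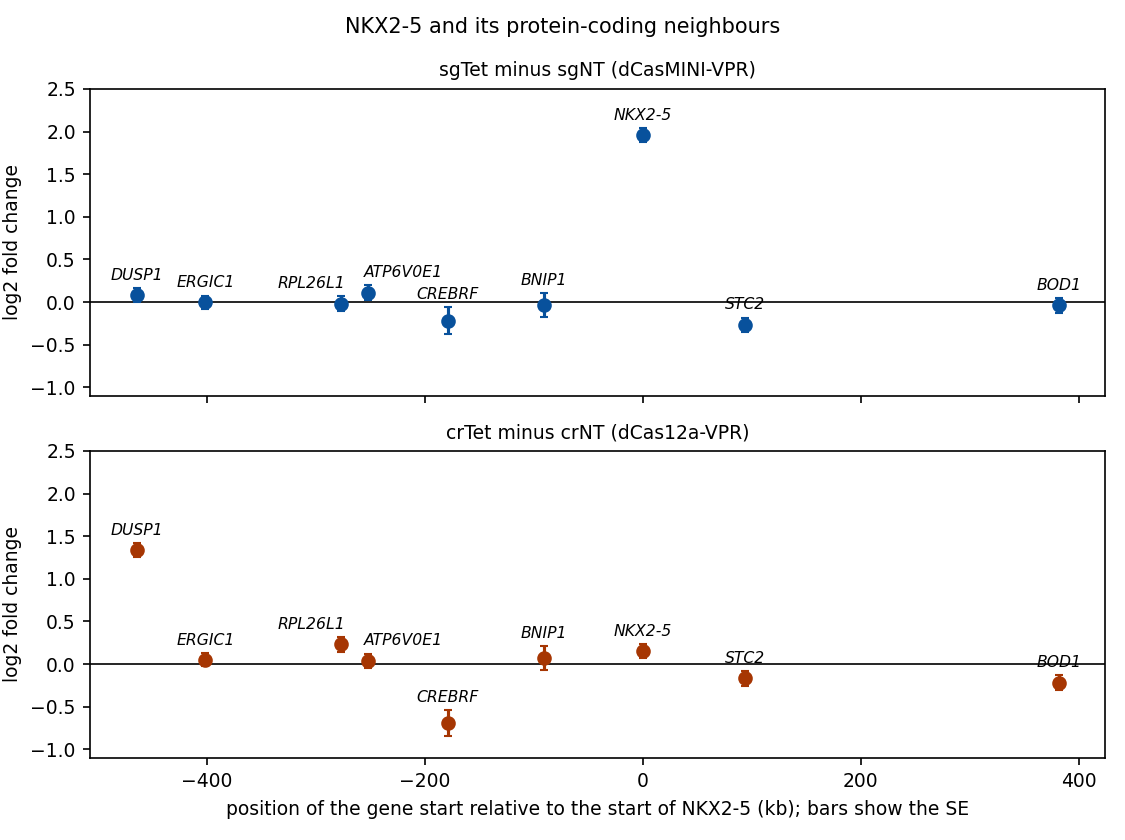
Log2 fold changes (y axis, bars show the SE) of NKX2-5 and its 8 protein-coding neighbours against the distance between gene starts in kb (x axis), for dCasMINI-VPR (top) and dCas12a-VPR (bottom). With dCasMINI-VPR NKX2-5 stands at 1.96 and its neighbours between -0.27 and 0.11; with dCas12a-VPR DUSP1 stands at 1.33.

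The profile most like that of NKX2-5 over the 8 libraries belonged to VGLL2, a vestigial-like cofactor of the TEAD factors, with a Pearson correlation of log2 CPM of 0.99 among 12509 genes compared. VGLL2 was at 2.61 and 2.89 CPM in sgNT, 21.3 and 18.1 CPM in sgTet, 2.41 and 1.82 CPM in crNT, and 2.15 and 2.43 CPM in crTet. Both genes were high in the sgTet pair and low elsewhere. SGTA, NOL10, LARS2 and NAE1 followed at 0.97, 0.97, 0.97 and 0.96, with sgTet levels above sgNT by 0.09 to 0.24 on the log2 scale, far less than NKX2-5. By Spearman correlation these 5 genes ranged from 0.67 (LARS2) to 1 (NAE1). With 2 of the 8 libraries far above the rest, such correlations describe which genes share that single contrast, and the libraries share their sorting and depth. The Pearson correlations of the 6 partners with NKX2-5 ran from -0.68 (TBX20) to -0.02 (GATA4), and the Spearman correlations from -0.76 (TBX20) to 0.48 (GATA4).

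**Figure D5:**
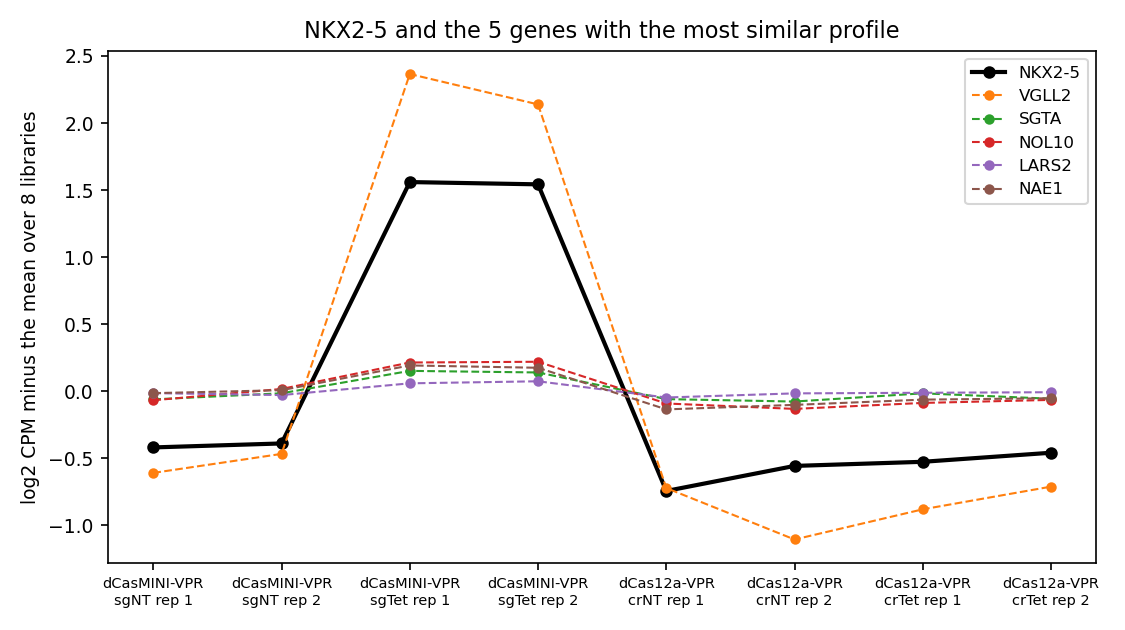
Log2 CPM minus the gene's mean over the 8 libraries (y axis) in each library (x axis) for NKX2-5 (solid) and the 5 genes with the most similar profile (dashed). NKX2-5 and VGLL2 rise steeply in the sgTet pair, while SGTA, NOL10, LARS2 and NAE1 differ by at most 0.24 between the means of sgTet and sgNT.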

How the data were processed

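STAR and the genome build hg38 were used by the authors, per the submitters' processing notes, with the version of STAR not given in the sources used here. Raw read counts per gene were deposited for each library, in an unstranded and 2 strand-specific columns, over 60652 gene rows. The unstranded counts were used, without the 4 summary totals. Of the gene rows 42024 had a symbol, and 58361 a position in GENCODE release 29. Ambiguous reads, those on overlapping genes, made up 10.4% to 11.2% of a library.

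Counts were fitted with edgeR 4.0.16 (robust quasi-likelihood, TMM, two-sided) in R 4.3.3, in 1 model of the 8 libraries with 4 group means. A filter on low counts left 16606 genes, and p-values were adjusted by Benjamini-Hochberg over all of them, with calls at 0.05. With 4 residual degrees of freedom, the common biological variation came to 8.04%. CPM use TMM-adjusted library sizes, and log2 CPM a prior count of 2. The scripts were tested on simulated data. DESeq2 1.42.0, other scalings, filters and strands, a replicate block and leaving out each library were tried.

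The members and lists were chosen with earlier results of these data known. Named genes were the 10 members, up to 4 called genes per list and comparison by smallest adjusted p with a mean of at least 1 CPM in a group compared, the protein-coding genes within 500 kb of NKX2-5, and the 5 genes most correlated with it. MYOM1, NKX2-6 and RPL7AP33 fell outside this rule and were picked with their values known, like the genes named for having no read.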

Additional observations from a re-analysis of the deposited data

Results flagged for a closer look

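The guide effect differed between the 2 activators for 6 of the genes named, by the test of the difference itself (dCasMINI-VPR minus dCas12a-VPR, log2 scale, edgeR, n = 2 libraries a group). For NKX2-5 the difference was 1.80 ± 0.11, a value that holds the comparison on which the gene was chosen, and for VGLL2, picked because its profile was most like that of NKX2-5, it was 2.72 ± 0.36, likewise a description. DUSP1 differed by -1.25 ± 0.11 (adjusted p = 1.24e-08), FOXC1 by -0.53 ± 0.10 (adjusted p = 0.00490), SMAD7 by -0.98 ± 0.21 (adjusted p = 0.0148) and NR2F1 by -0.50 ± 0.13 (adjusted p = 0.0402). SMAD7 was at 17.7 and 18.2 CPM in sgNT, 11.7 and 14.8 CPM in sgTet, 12.5 and 12.1 CPM in crNT, and 17.9 and 18.0 CPM in crTet, so its pairs moved in opposite directions. FOXC1 was at 376 and 383 CPM in sgNT, 357 and 335 CPM in sgTet, 240.2 and 261 CPM in crNT, and 347 and 314 CPM in crTet. The DUSP1 difference passed the test in every alternative that could be fitted. FOXC1 did not without sgNT replicate 2 or crNT replicate 1, SMAD7 (to which DESeq2 gave no adjusted p) did not with forward-strand counts or without sgNT replicate 2, sgTet replicate 1 or either crNT library, and NR2F1 did not with forward-strand counts or without any 1 of the sgNT, crNT and crTet libraries.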

How the results depend on the processing

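The log2 fold change of NKX2-5 in sgTet against sgNT, on which the list was chosen, ran from 1.92 to 1.99 over the alternatives. No member was called in crTet against crNT under any alternative run, with DESeq2 giving an adjusted p for 5 of the 7. In sgNT against crNT the count of members called was 0, and 1 (NKX2-5) with only the groups compared, with the replicate block, and without either sgTet library, so leaving out 1 library gave 0 to 1. NKX2-5 enters this count as a description, since the sgNT libraries had a part in choosing the list. Counts over all genes moved more. For sgTet against sgNT the count of 132 became 276 without a filter, 84 with only the groups compared, and 50 to 1475 without 1 library. For crTet against crNT 1049 became 1785 with only the groups compared, 661 with forward-strand counts, and 135 to 1965 without 1 library. The difference of guide effects went from 224 to 450 without a filter, 106 with forward-strand counts, 347 with the replicate block, and 28 to 1835 without 1 library. For sgNT against crNT 1276 became 2968 with only the groups compared and 333 to 2143 without 1 library, and for sgTet against crTet 711 became 317 with only the groups compared, 444 with forward-strand counts, and 331 to 2150 without 1 library. Among the fits without 1 library, the highest counts came without sgTet replicate 2 in all 5 comparisons. In crTet against crNT and sgNT against crNT, leaving out sgTet replicate 1 gave nearly the same count. By a chi-square per degree of freedom over genes, the 2 sgTet libraries differed most from each other. It was 13.8 there and 3.19 to 6.92 in the other groups. The cause of the shifts in the counts was not tested. Among the lists, the 6 other regulators called in sgNT against crNT became 11 with only the groups compared and 4 with forward-strand counts. The share of all tested genes called moved the same way there, from 7.68% to 19% and 5.43%. In crTet against crNT the upstream genes called went from 4 to 2 with either strand's counts and 7 with only the groups compared. The share of all tested genes called went from 6.32% to 3.8% (forward), 4.18% (reverse) and 11.3% in these fits. In sgNT against crNT upstream calls went from 5 to 10 with only the groups compared, beside 19% of all tested genes.

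The labels do not say whether replicate numbers pair the libraries. Deviations of same-numbered libraries correlated weakly, at 0.055 with dCasMINI-VPR and 0.076 with dCas12a-VPR, over 12692 genes, which does not settle it. With the replicate block, 167 genes were called in sgTet against sgNT (132 without it) and 1201 in crTet against crNT (1049 without it). With 2 libraries a group, changes in HAND2 and TBX20 smaller than the reach of their intervals to either side of the estimate could not be seen. TBX5, NPPA and NPPB were too near 0 reads to compare.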
